A study of Mus musculus with 4 samples.

Results

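The domains described here are long H3K36me3 regions that carry several H3K4me3 regions, and 631 of the 10195 H3K36me3 regions on chromosomes 1 to 19 were of this kind. They came from chromatin immunoprecipitation followed by sequencing (ChIP-seq) of the forebrain of embryos of the outbred mouse strain CD1, taken at embryonic day 11.5. Each ChIP library was made from a pool of 36 forebrain pieces fixed in 1% formaldehyde, so no value belongs to 1 embryo. An H3K4me3 region was a run of 1 kb bins with at least 20 ChIP tags and a ChIP count, plus 1, of at least 4 times the scaled own input, plus 1. An H3K36me3 region was a run of 5 kb bins with at least 20 ChIP tags and, computed alike, at least 2 times the scaled own input, and in both marks a gap of 1 bin was bridged. A domain was taken when it measured 20 to 75 kb and had 2 or more H3K4me3 regions overlapping it or lying within 5 kb. The domains were thus chosen by the tag counts of both marks over their own inputs, and these counts are given as a description, with no test.

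Trimethylation of lysine 4 of histone H3 (H3K4me3) is concentrated at the starts of genes, both active and poised, where it is placed by SET1 and MLL enzymes. Trimethylation of lysine 36 (H3K36me3) is placed by SETD2, which travels with elongating RNA polymerase II, and so covers the bodies of transcribed genes. A transcribed gene is known to carry H3K4me3 at its start followed by H3K36me3 along its body. Neighbouring transcribed genes can therefore give a stretch of H3K36me3 with more than 1 H3K4me3 site.

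The study had 4 groups of 1 library each. The H3K4me3 ChIP (10 microlitres of antibody) and its input, 0.5% of the chromatin, both went through 8 cycles of whole-genome amplification (WGA). The H3K36me3 ChIP (15 microlitres of antibody) and its input were not amplified, so mark and amplification cannot be told apart. After filtering there were 7606197 tags in the H3K4me3 ChIP, 2513019 in the WGA input, 10466543 in the H3K36me3 ChIP and 23110768 in the unamplified input. No spread between replicates could be measured, and all intervals are 95% intervals for counting tags or domains in these libraries. The tissue is a mixture of cells, so fewer cells with a mark and less of the mark per cell cannot be told apart, nor whether both marks lay in the same cells. Coordinates refer to build mm8. The gene tables used here are of another build, so no gene is named and the labelled tissue was not checked against marker genes.

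H3K4me3 bins over input made up 0.607% of the 2175423 bins of 1 kb with a tag of the unamplified input, and H3K36me3 bins over input 9.76% of the 468817 bins of 5 kb. The 631 domains covered 26.7 Mb. Of H3K36me3 regions of any length, 8.92% had 2 or more H3K4me3 regions (909 of 10195, with those outside the width limits counted too). The domains were 14.9% of the 4238 regions of 20 to 75 kb. They held 10.6% of autosomal H3K36me3 ChIP tags, 1.93% of unamplified input tags, 2.15% of H3K4me3 ChIP tags and 1.56% of WGA input tags. Most of the domains, 504, had exactly 2 H3K4me3 regions, 88 had 3, 33 had 4, 4 had 5 and 2 had 6. Their median width was 40 kb with 2 H3K4me3 regions and 50 kb with 4 or more.

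Wider H3K36me3 regions more often had several H3K4me3 regions. The share with 2 or more was 10.2% (8.93 to 11.6, exact binomial) among regions of 20 to 30 kb, 17.5% (15.5 to 19.6) among those of 35 to 50 kb and 23.4% (20.4 to 26.6) among those of 55 to 75 kb. The share with exactly 1 stayed between 43.0% and 45.7%, and the share with none was 44.1%, 39.3% and 33.6%. The growth with width thus came with a smaller share of regions without H3K4me3. A wider region has more room for H3K4me3 regions, and the part of width alone in this growth was not tested.

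**Figure D1:**
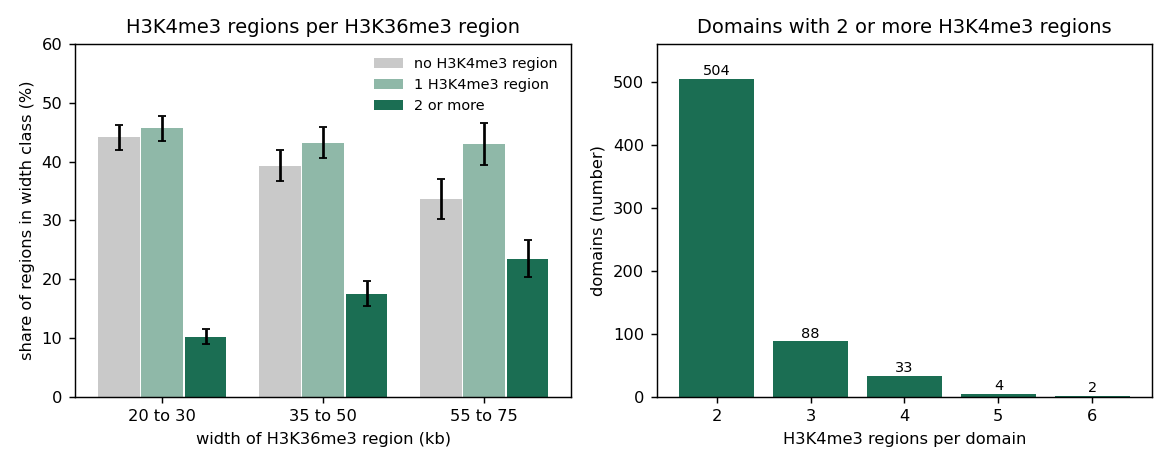
Left, bars give the share (%) of H3K36me3 regions in each width class with no, 1 or 2 or more H3K4me3 regions within 5 kb, with exact binomial 95% intervals. Right, the number of domains by their number of H3K4me3 regions, of which 504 had 2 and 127 had 3 or more.

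H3K36me3 in the domains stood at a median of 5.45 times the scaled unamplified input (interquartile range 4.50 to 6.54, range 2.03 to 21.5), against 3.70 over all 10195 regions. In regions of the same width range it was 5.06 (4.99 to 5.17, interval of the median) with 1 H3K4me3 region and 3.65 (3.56 to 3.75) with none, where the domains had 5.45 (5.32 to 5.55). Within width classes the domains had 5.43, 5.37 and 5.51 and regions with 1 H3K4me3 region had 5.18, 5.0 and 4.97, and the intervals of the median overlapped at 20 to 30 kb and at 35 to 50 kb. With only overlapping H3K4me3 regions counted, the median of the domains was 0.985 times that of regions with 1, against 1.08 times (1.05 to 1.10) by the rule. With an H3K36me3 ratio of at least 3 per bin it was 1.02 times (0.987 to 1.05), so this ordering did not hold under every choice. Against the WGA input the medians were 6.61 in the domains, 5.32 with 1 and 3.99 with none.

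ChIP density differed more than the ratio did, and the unamplified input moved with it. The median density of H3K36me3 ChIP tags was 38.5 per kb in the domains, 28.1 with 1 H3K4me3 region and 20.7 with none. The unamplified input stood at 16.3, 12.4 and 12.3 tags per kb and the WGA input at 1.41, 1.3 and 1.25, where the genome means of these inputs were 9.51 and 1.03. The domains therefore lay where both inputs were dense, and the part of input density in their H3K36me3 level was not tested. In 630 of the 631 domains the lower bound of the ratio to the own input was at least 2, which the selection of H3K36me3 bins largely fixes. In 628 the ratio to the WGA input was at least 2.

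The extremes show the range, and the 2 leading by ratio were chosen after their values were seen. A domain of chromosome 17 (chr17:23535001-23555000) held 3387 H3K36me3 ChIP tags and 347 of the unamplified input, which gives 21.5 (19.3 to 24.1). A domain of chromosome 7 (chr7:23790001-23820000) held 3579 against 459, a ratio of 17.2 (15.6 to 19). Both were short, 20 and 30 kb, with H3K4me3 at both ends. At the other extreme a domain of chromosome 19 (chr19:7010001-7055000), which had 5 H3K4me3 regions, held 1185 against 1288, a ratio of 2.03 (1.88 to 2.20). Its unamplified input stood at 3.01 times the genome mean, and its ratio to the WGA input was 4.74.

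The place of the H3K4me3 regions divided the domains into 5 arrangements. An H3K4me3 region was counted at an end when its centre lay outside the domain or at most 5 kb inside that end, and as interior when it lay deeper than 5 kb from both ends. Of the 1436 records, 528 were interior (36.8%, 34.3 to 39.3), 457 lay at the end of lower coordinate and 451 at the end of higher coordinate. These are 1431 different regions, since 5 served 2 neighbouring domains. Among regions of the same width range with a lone H3K4me3 region, 12.1% (10.6 to 13.6) had it in the interior. The domains have 2 or more by the rule, so these shares are set side by side without a test.

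The commonest arrangement was H3K4me3 at 1 end and in the interior, seen in 273 domains (43.3%, 39.4 to 47.2). H3K4me3 at both ends without any in the interior was seen in 229 domains (36.3%, 32.5 to 40.2), of which 220 had just 2 H3K4me3 regions. Both ends and the interior were occupied in 59 domains (9.35%), the interior alone in 50 (7.92%) and 1 end alone in 20 (3.17%). The lower end was the occupied one in 141 and the higher in 132 of the domains with 1 end and the interior. The median width was 35 kb for domains with both ends only, 45 kb with 1 end and interior and 55 kb with interior only. These shares depend on how H3K36me3 bins were joined: without bridging, interior H3K4me3 was found in 23.8% of 613 domains in place of 60.5%, and both ends were occupied in 66.2% in place of 45.6%.

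**Figure D2:**
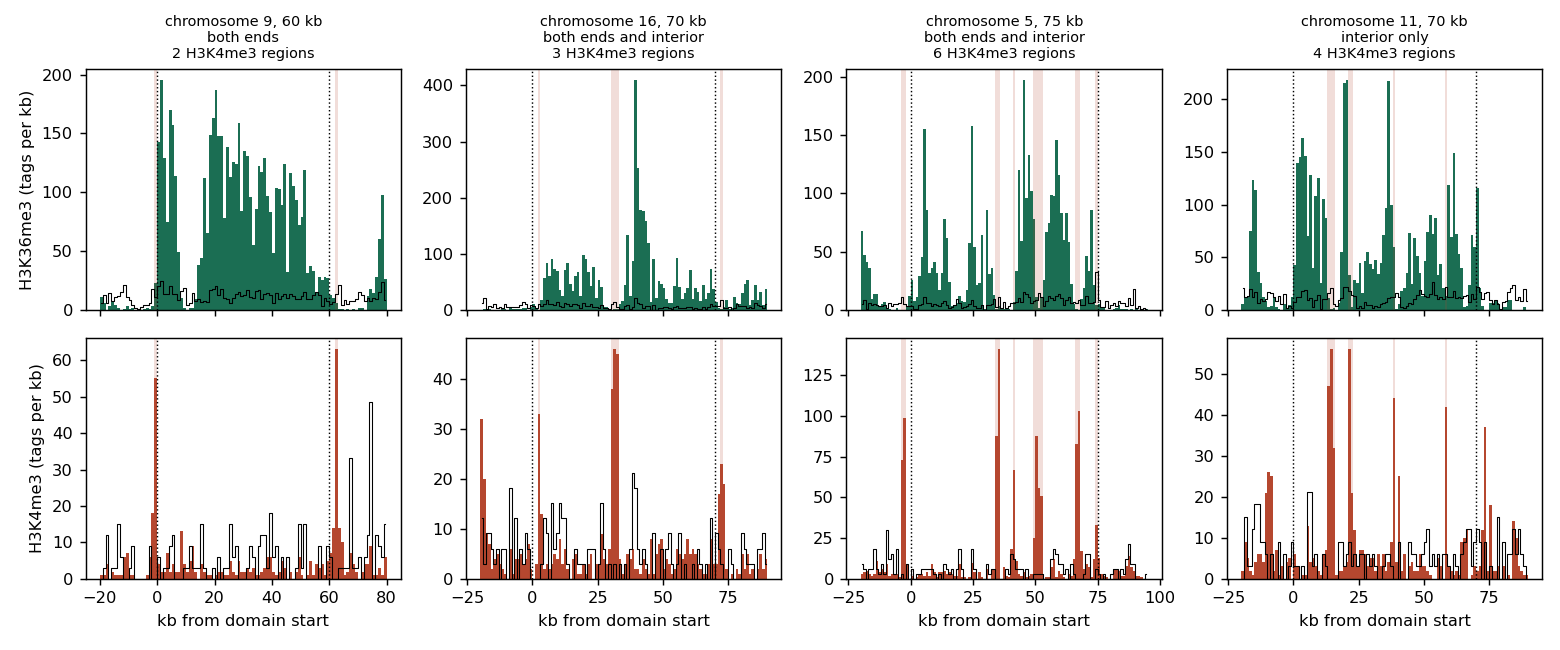
H3K36me3 ChIP tags per kb (top, green) and H3K4me3 ChIP tags per kb (bottom, red) in 4 domains, plotted by distance in kb from the domain start, with the scaled own input as a black line, domain ends as dotted lines and H3K4me3 regions shaded. H3K36me3 drops at H3K4me3 regions inside the chromosome 16 and 5 domains, while the chromosome 9 domain has H3K4me3 only at its ends. In the chromosome 11 domain H3K36me3 drops at the interior regions except 1, with 60 tags per kb inside and 47.8 beside.

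Domains with H3K4me3 at both ends and none inside had H3K36me3 in the space between, which the selection of H3K36me3 bins largely fixes. Some had short low stretches there. Leading by H3K36me3 tags over input means here the most ChIP tags after the scaled input is subtracted, not the highest ratio. By that measure the leading domain of this kind lay on chromosome 9 (chr9:20640001-20700000). It held 5291 H3K36me3 ChIP tags, 1620 unamplified input tags, 167 H3K4me3 ChIP tags and 91 WGA input tags, an H3K36me3 ratio of 7.21 (6.82 to 7.63). Its H3K4me3 regions were 1 kb each and 62 kb apart, with 55 and 63 ChIP tags and no WGA input tag in either. The H3K36me3 of this domain was broken for 6 kb, from 8 to 14 kb after its start, where 25 ChIP tags stood against 147 unamplified input tags. The highest H3K4me3 count per kb there was 13, under the minimum of 20 for a region.

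The second leading domain of this arrangement, by the same difference, lay on chromosome 4 (chr4:117635001-117675000). It had 4581 H3K36me3 ChIP tags against 1022 of unamplified input (ratio 9.89, 9.24 to 10.6). Its H3K4me3 regions were unequal, with 20 and 125 tags in 1 kb each, the weaker 0.160 times the stronger. The weaker stood exactly at the tag minimum, so this domain is a member by a narrow margin.

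The largest gaps between neighbouring H3K4me3 regions belonged to the same arrangement. On chromosome 1 (chr1:153110001-153185000) H3K4me3 regions with 146 tags in 3 kb and 142 tags in 2 kb lay 81 kb apart, and the domain between them held 1174 H3K36me3 ChIP tags against 404 input tags (ratio 6.41, 5.72 to 7.20). On chromosome 6 (chr6:56650001-56725000) the gap was 80 kb, with 83 and 105 H3K4me3 tags and an H3K36me3 ratio of 5.27 (4.73 to 5.88). On chromosome 4 (chr4:132950001-133025000) it was 78 kb (ratio 7.98, 7.47 to 8.53) and on chromosome 5 (chr5:122685001-122760000) 77 kb (ratio 7.78, 7.29 to 8.32). The chromosome 1 and 6 domains were thin in tags, at 15.7 and 15.1 H3K36me3 ChIP tags per kb, and their unamplified input lay at 0.566 and 0.663 times the genome mean. In both, the longest stretch of low H3K36me3, 3 and 4 kb, held no unamplified input tag at all, so those stretches give no H3K36me3 value.

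Along the 229 domains with both ends occupied, in 10 equal parts, H3K36me3 was level in the middle and lower at both ends. The ratio was 4.58 (4.48 to 4.68) in the first part, 6.22 (6.09 to 6.35) in the second, 6.65 (6.51 to 6.79) in the fifth part and 4.73 (4.63 to 4.83) in the last. Parts 2 to 5 together stood at 6.54 (6.47 to 6.60) and parts 6 to 9 at 6.57 (6.51 to 6.64), with intervals that overlap. These parts were counted by coordinate. Regions with 1 H3K4me3 region at an end were counted from that end. Their same sets of parts stood at 5.69 (5.67 to 5.71) and 5.77 (5.74 to 5.79), and those of regions with none at 4.18 and 4.14. The low ends were also found in these regions. The first and last parts stood at 4.03 and 3.86 with 1 H3K4me3 region, and at 3.55 and 3.44 with none. In the 273 domains with 1 end and interior, counted from the occupied end, H3K36me3 was 6.50 (6.39 to 6.60) in the second part and 4.97 (4.89 to 5.05) in the seventh. H3K4me3 over its own input was 1.77 in the seventh part and 1.86 in the fourth, where it stood at 0.693 and 0.789 in domains with both ends only. That difference in H3K4me3 follows from the definition of these arrangements.

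**Figure D3:**
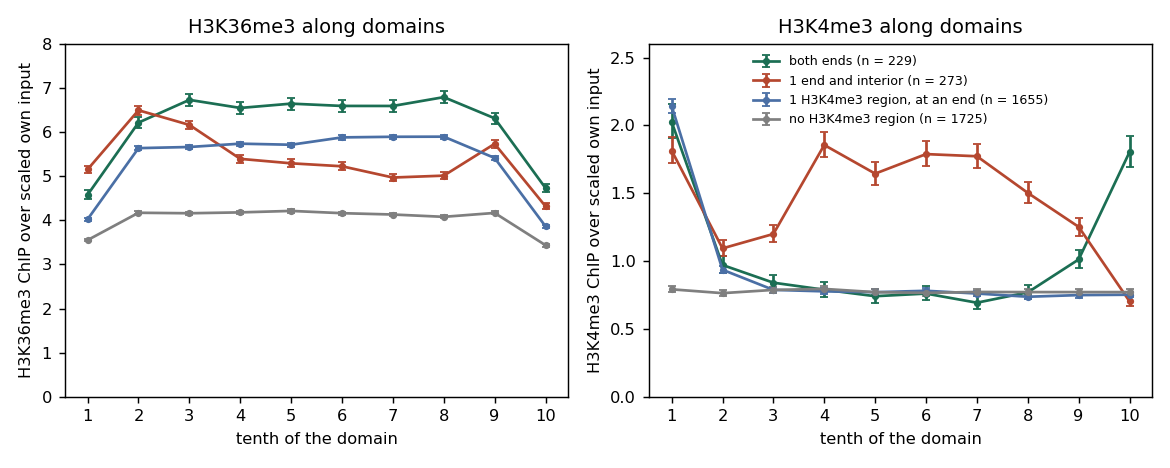
Pooled ratio of H3K36me3 (left) and H3K4me3 (right) ChIP to scaled own input in 10 equal parts of domains with H3K4me3 at both ends, domains with 1 end and interior, and regions with 1 or no H3K4me3 region, with exact binomial 95% intervals. Domains with both ends occupied are highest in part 8, at 6.79, and regions without H3K4me3 in part 5, at 4.21.

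Interior H3K4me3 regions sat in a notch of H3K36me3. Pooled over the 528, the H3K36me3 ChIP held 9.98 tags per kb inside the H3K4me3 region and 45.9 per kb in the stretches from 2 to 5 kb beyond its edges, 0.218 times as many inside. Those stretches beside can hold a neighbouring H3K4me3 region or run past the domain's end. Over the unamplified input the ratio was 0.806 (0.787 to 0.825) inside and 5.57 (5.51 to 5.62) beside, 0.145 times (0.141 to 0.149). That input was itself denser inside, 27.3 against 18.2 tags per kb, which deepens the notch in the ratio. The WGA input was thinner inside, 0.878 against 1.55 tags per kb, and took part in choosing these regions. Over the WGA input H3K36me3 stood at 2.73 (2.54 to 2.93) inside and 7.11 (6.91 to 7.32) beside, 0.384 times (0.356 to 0.414). The notch was thus present in the ChIP tags alone and over each input. Its depth differed between the inputs, and without bridging of gaps it was 0.255 over the unamplified input in place of 0.145.

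In steps of 500 bp around the centres of interior H3K4me3 regions, H3K36me3 ChIP tags averaged 47.6 per kb at 5 to 10 kb distance and 7.71 per kb at the centre. They were under 0.5 times that distant level across 3.5 kb, in the steps from 1.5 kb before to 1.5 kb after the centre, and the same 3.5 kb was found for the ratio over either input. H3K4me3 ChIP tags averaged 58.0 per kb at the centre and 5.83 and 5.44 per kb at 2 kb on either side. H3K36me3 stood at 43.3 tags per kb 3 kb before the centre and at 39.2 the same distance after it.

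At the 908 records of H3K4me3 at an end, H3K36me3 began on the domain's side within the same distance. The ratio over the unamplified input was 0.254 (0.241 to 0.267) at the centre, 1.53 (1.47 to 1.58) at 1 kb, 3.92 (3.80 to 4.04) at 2 kb and 5.89 (5.73 to 6.05) at 5 kb into the domain. On the outer side it was 0.622 (0.590 to 0.656) at 5 kb and 1.00 (0.962 to 1.05) at 10 kb. Which side is high follows from the definition of an end.

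**Figure D4:**
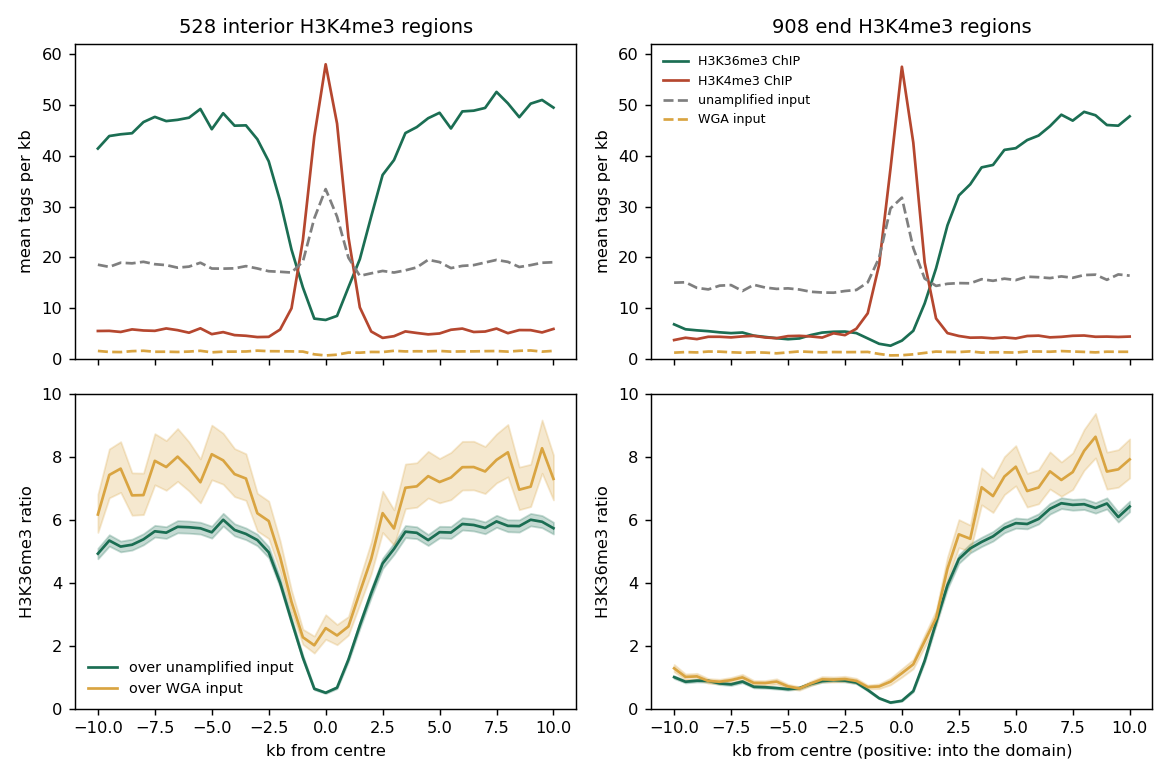
Mean tags per kb of all 4 libraries (top) and the H3K36me3 ratio over each input with exact binomial 95% bands (bottom), in steps of 500 bp from 10 kb before to 10 kb after the centre of interior (left, n = 528) and end (right, n = 908) H3K4me3 regions. H3K36me3 is at 7.71 tags per kb at interior centres and 47.6 at 5 to 10 kb, and at end regions it is low on the outer side.

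The notch was found at nearly all interior regions. The density of H3K36me3 ChIP tags inside was below that beside at 500 of 528 (94.7%, 92.4 to 96.4), and at 434 (82.2%) it was at most 0.25 times as high. The median of inside over beside was 0.0640 (interquartile range 0.0270 to 0.171), and 59 interior regions held no H3K36me3 ChIP tag. By width the median was 0.0603 at 1 kb (223 regions), 0.0631 at 2 kb (212) and 0.0988 at 3 kb or more (93). The pooled value of 0.218 weights each region by its tags and is higher than these medians. In regions with a lone interior H3K4me3 region (n = 227) the pooled value was 0.215, and over all 7991 H3K4me3 regions, wherever they lie, 0.303. The notch was thus also found at H3K4me3 regions outside these domains.

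**Figure D5:**
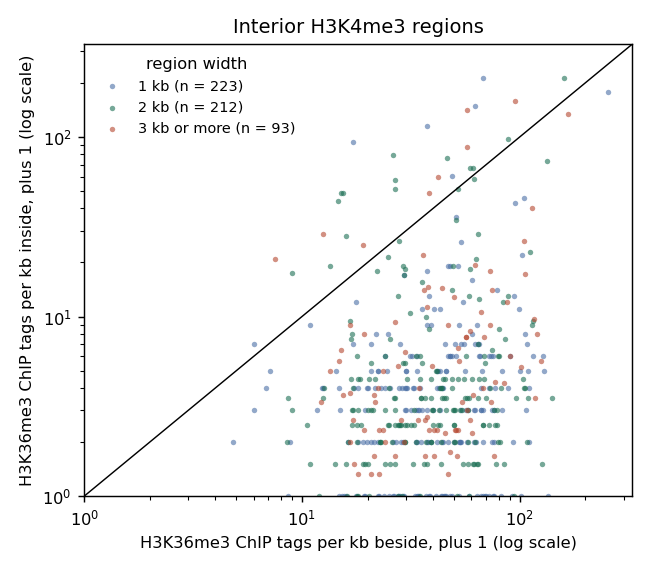
H3K36me3 ChIP tags per kb inside each of 528 interior H3K4me3 regions against the stretches 2 to 5 kb beside it, both plus 1 and on log scales, coloured by region width, with the line of equal density. The 500 regions below the line carry less H3K36me3 inside than beside.

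At 28 interior regions H3K36me3 was at least as dense inside as beside. Their median density was 59.5 tags per kb inside and 31.2 beside, where the 500 others had 2.50 inside and 39.9 beside. Only 6 of the 28 (21.4%) were 1 kb wide, against 217 of the 500 (43.4%), and 8 were 3 kb or wider. Their unamplified input inside was a median of 29.8 tags per kb, near the 27.0 of the others. A named case lay on chromosome 3 (chr3:88300001-88304000), 4 kb wide, with 220 H3K4me3 ChIP tags against 5 WGA input tags. It held 158.5 H3K36me3 ChIP tags per kb inside and 94.0 beside. The stretch before it overlapped the neighbouring H3K4me3 region, 3 kb away, which held 52.6 H3K36me3 ChIP tags per kb. Another, on chromosome 17 (chr17:56298001-56300000), held 66.0 inside and 60.3 beside with 55 H3K4me3 tags. The stretch before it held another H3K4me3 region, with 1 H3K36me3 tag. A low stretch of 6 kb, with 28 H3K36me3 ChIP tags against 145 unamplified input tags, reached into the chromosome 17 region. Its value beside thus included a notch. One more lay on chromosome 2 (chr2:77716001-77718000), with 213 inside and 159 beside and 85 H3K4me3 tags against 5 WGA input tags.

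The bridged bins showed the same notch at the scale of the 5 kb bins. Of the 5332 bins in the domains 469 (8.80%) missed the H3K36me3 minimum and were bridged, and 364 domains (57.7%, 53.7 to 61.6) held at least 1. Part of an H3K4me3 region lay in 299 of the bridged bins (63.8%, 59.2 to 68.1), while 15.7% of all bins of the domains held 1. Of regions with 1 H3K4me3 region 33.8% (31.7 to 36.0) had a bridged bin. Among the 170 bridged bins without an H3K4me3 region, 46 (27.1%, 20.5 to 34.4) had a 1 kb stretch with at least 10 H3K4me3 ChIP tags, against 458 of the 4324 bins without an H3K4me3 region that passed the H3K36me3 minimum (10.6%, 9.69 to 11.5). These bins had similar unamplified input, a median of 14.9 and 13.6 tags per kb. The minimum of 10 was chosen after the chromosome 9 domain was seen.

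H3K36me3 often stood at different levels on the sides of an interior H3K4me3 region. In the stretches from 2 to 8 kb beyond the edges, both sides were at least 2 times the own input at 447 of 528 (84.7%, 81.3 to 87.6), which the selection of H3K36me3 bins and the definition of interior largely fix. The higher side was a median of 1.79 times the lower (interquartile range 1.3 to 2.86), and at 224 (42.4%, 38.2 to 46.8) it was at least 2 times. This quotient cannot fall under 1, and a side can hold a neighbouring H3K4me3 region or run past the domain's end. At the 300 interior regions with both sides in the domain and no other H3K4me3 region within 10 kb, the median was 1.69 (1.61 to 1.85, interval of the median) and 118 (39.3%, 33.8 to 45.1) reached 2 times. Lone interior H3K4me3 regions chosen alike (n = 179) had a median of 1.76 (1.59 to 1.94), so unequal sides were also found outside these domains. Around the middle 2 kb of regions without H3K4me3 the median was 1.42 (1.39 to 1.46), and 20.8% (18.9 to 22.8) of 1723 reached 2 times. These 3 comparisons were added after seeing the data, and the part of H3K36me3 density, which was lower in regions without H3K4me3, was not tested. Over all 528, the higher side was the lower coordinate at 254 and the higher coordinate at 273.

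The same was seen when domains were cut at their H3K4me3 regions into stretches of at least 5 kb. In the 371 domains with 2 or more such stretches the highest stood at a median of 1.66 times the lowest (interquartile range 1.25 to 2.38). It was at least 2 times in 126 domains (34.0%, 29.2 to 39.0) and at least 4 times in 28. Stretches between H3K4me3 regions had a median ratio of 5.92 (n = 721) and stretches between an H3K4me3 region and a bare end 5.11 (n = 392). Outer stretches include the bare end, where the called H3K36me3 stops.

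On chromosome 16 (chr16:91505001-91575000) the step was plain. This domain held 3978 H3K36me3 ChIP tags, 1026 unamplified input tags, 408 H3K4me3 ChIP tags and 101 WGA input tags. Its interior H3K4me3 region, 3 kb wide with 129 tags against 1 WGA input tag, contained 2 H3K36me3 tags. The stretch of 27 kb before it had a ratio of 6.23 (5.62 to 6.92) and the stretch of 37 kb after it 13.6 (12.3 to 15.2). The intervals, which cover counting error only, do not overlap, and the difference between the 2 sides was not tested.

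On chromosome 7 (chr7:29835001-29900000) the step ran the other way. The interior H3K4me3 region there held 276 tags in 3 kb against 5 WGA input tags and 5 H3K36me3 tags. The stretch of 42 kb before it stood at 12.6 (11.6 to 13.8) and the stretch of 20 kb after it at 3.82 (3.35 to 4.37). On chromosome 15 (chr15:98640001-98695000) an H3K4me3 region of 86 tags with 2 H3K36me3 tags parted 18 kb at 4.19 (3.67 to 4.79) from 35 kb at 10.3 (9.64 to 11). In all 3 domains the H3K4me3 region held almost no H3K36me3 while the levels beside it differed.

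The domain with the most H3K36me3 tags over input, on chromosome 2 (chr2:77690001-77745000), went with raised inputs. It held 11011 H3K36me3 ChIP tags and 5201 of the unamplified input (ratio 4.67, 4.52 to 4.83). Relative to the genome mean, the unamplified input was 9.94 times as dense there and the amplified one 6.02 times. Of its 3 H3K4me3 regions the one at the end of higher coordinate held 597 tags in 2 kb, and the interior ones held 85 and 25, so that by tags per kb the second was 0.142 times the first. The part of the raised inputs in these values was not tested.

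Other domains leading in H3K36me3 tags over input had inputs of 2.77 to 3.41 times the mean. On chromosome 10 (chr10:79780001-79835000) 6386 ChIP tags stood against 1783 input tags (ratio 7.91, 7.50 to 8.34), with H3K4me3 regions of 133, 119 and 173 tags, each 2 kb wide. The middle one held 5 H3K36me3 tags, and the stretches on its sides stood at 5.26 (4.78 to 5.79) and 10.8 (9.96 to 11.6). The first held 145 H3K36me3 tags, 72.5 per kb inside against 133 beside, so by these values the notch was shallower there. The longest low stretch of this domain, 4 kb with 42 H3K36me3 ChIP tags against 155 input tags, began inside that first region. On chromosome 5 (chr5:115810001-115885000) both H3K4me3 regions, of 85 and 36 tags, were interior and only 4 kb apart, with 10 kb at a ratio of 1.88 (1.57 to 2.25) before them and 58 kb at 8.29 (7.85 to 8.76) after them. That domain is thus a long H3K36me3 stretch on 1 side of a close H3K4me3 pair, with a weak stretch on the other.

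The domains with the most H3K4me3 regions had H3K36me3 broken into several pieces. The domain of chromosome 5 (chr5:138350001-138425000) had 6 H3K4me3 regions and held 3330 H3K36me3 ChIP tags, 1108 unamplified input tags, 996 H3K4me3 ChIP tags and 115 WGA input tags. Its H3K4me3 regions held 172, 229, 67, 220, 186 and 33 tags in order of coordinate. Those of 172, 229 and 186 tags held 0, 4 and 1 H3K36me3 tags, and the wide one of 220 tags, 4 kb, held 102. The stretches of 34 and 13 kb between them stood at 8.67 (7.68 to 9.80) and 8.25 (7.17 to 9.52), but the 5 kb between those of 229 and 67 tags held 5 H3K36me3 tags, a ratio of 0.263 (0.0811 to 0.663). H3K36me3 was thus below its input level between the closest pair and high around it.

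The other domain with 6 lay on chromosome 11 (chr11:68835001-68875000), in 40 kb, with 1756 H3K36me3 ChIP tags against 682 (ratio 5.68, 5.20 to 6.22). Its H3K4me3 regions were more alike, with 39.5 to 53.0 tags per kb, and from 18 to 28 kb after its start, where 3 of them lie, 14 H3K36me3 tags stood against 173 input tags. On chromosome 7 (chr7:44730001-44795000) a domain with 5 had 4222 tags against 1780 (ratio 5.24, 4.95 to 5.54). On chromosome 14 (chr14:51180001-51245000) a domain with 5 had stretches at 2.97 (2.44 to 3.61), 7.17 (6.16 to 8.38), 13.5 (11.4 to 16.1) and 2.73 (1.96 to 3.83), so that its level changed at every interior H3K4me3 region. The domain with 5 on chromosome 19, given above for its low ratio, had its stretches of at least 5 kb at 1.89, 1.93 and 2.27. On chromosome 17 (chr17:56245001-56310000) a domain with 4 had 6192 tags against 1723 (ratio 7.93, 7.52 to 8.37).

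Domains with H3K4me3 in the interior alone or at 1 end alone were few. On chromosome 11 (chr11:120375001-120445000) 4 interior H3K4me3 regions held 135, 77, 44 and 42 tags, and the domain 4332 H3K36me3 ChIP tags against 1670 (ratio 5.73, 5.41 to 6.06). Its first 13 kb and the 15 kb between the regions of 77 and 44 tags stood at 9.89 (8.71 to 11.3) and 10.2 (8.73 to 12.0), and the 19 kb between those of 44 and 42 tags at 3.66 (3.27 to 4.11). Inside the 4 regions H3K36me3 stood at 4.67, 18, 60 and 13 tags per kb, against 125, 28.2, 47.8 and 77.7 beside. The region of 44 tags thus had no notch. In the 20 domains with 1 end alone the median of the largest gap was 3 kb, and the definition of an end keeps it small. On chromosome 13 (chr13:63515001-63575000) regions of 189 and 54 tags lay 3 kb apart at the end of higher coordinate of 57 kb of H3K36me3 at 6.47 (6.0 to 6.99). On chromosome 11 (chr11:87410001-87445000) regions of 147 and 38 tags, also 3 kb apart, stood before 32 kb at 10.2 (9.23 to 11.2). In both, the second H3K4me3 region held fewer tags than the first.

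The gaps between neighbouring H3K4me3 regions of a domain ranged from 2 to 81 kb, with a median of 21 kb (19 to 22) over 805 gaps and an interquartile range of 11 to 34 kb. Over all neighbouring H3K4me3 regions of chromosomes 1 to 19 the median gap was 97 kb, but gaps in a domain are bounded by its width. Gaps of 2 or 3 kb, just over the gap that was bridged, made up 52 of the 805 (6.46%). With those gaps bridged, 607 of the 631 domains still had 2 or more H3K4me3 regions. In 43 domains all H3K4me3 regions were joined by gaps of at most 5 kb.

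The H3K4me3 regions of the domains had heights and widths close to those over all. They held a median of 43 ChIP tags per kb (interquartile range 32 to 58.4), against 40 over all 7991 H3K4me3 regions and 43.5 at regions with a lone H3K4me3 region. Of the 1431, 48.0% (45.4 to 50.6) were 1 kb wide and 14.4% (12.6 to 16.3) 3 kb or wider, against 51.5% and 14.9% over all. Interior regions were less often 1 kb wide, 42.2% (38.0 to 46.6), than end regions, 51.4% (48.1 to 54.7), and held 45 and 42 tags per kb. In 450 of the 1431 the WGA input held no tag, and no ratio to it is given for those. Against the unamplified input the median H3K4me3 ratio was 5.15 in the domains and 5.02 over all.

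Heights of the H3K4me3 regions within a domain were compared by tags per kb. The second highest by tags per kb was a median of 0.695 times the highest (0.677 to 0.714), and at least 0.5 times in 488 domains (77.3%). It was under 0.25 times in 14 domains. In domains with just 2 H3K4me3 regions the median was 0.680. The tag minimum of 20 keeps weaker second regions out of these values. Over all 7991 H3K4me3 regions the interquartile range of heights was itself narrow, 29.5 to 54 tags per kb. Pairs of H3K4me3 regions from different domains were not compared, so no likeness particular to a domain is shown.

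Of the 4 domains named for the widest H3K4me3 region, all but the chromosome 11 domain had more H3K36me3 ChIP tags than unamplified input tags inside it. On chromosome 12 (chr12:50260001-50290000) an H3K4me3 region of 14 kb with 559 tags overlapped the start of the domain and held 595 H3K36me3 ChIP tags against 167 unamplified input tags. On chromosome 7 (chr7:79375001-79410000) a region of 12 kb with 927 tags held 1554 against 375, 129.5 per kb, and the 26 kb after it stood at 4.95 (4.51 to 5.43). In the pooled stretches beside that H3K4me3 region, taken as for interior regions, H3K36me3 stood at 31 tags per kb, less than inside. The stretch before it lay outside the domain, so this value does not describe the domain alone. Within the domain, the 26 kb after that region held 1488 H3K36me3 ChIP tags against 664 unamplified input tags. A region of 6 kb on chromosome 11 (chr11:97514001-97520000), just outside the domain that begins at 97480001, went the other way, with 358 H3K4me3 tags, 12 H3K36me3 tags and 220 unamplified input tags. On chromosome 3 (chr3:88295001-88320000) a region of 5 kb with 425 tags held 263 H3K36me3 tags against 115.

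The domains were unevenly spread over the chromosomes. There were 0.266 per covered Mb over all, 0.548 (0.423 to 0.699, exact Poisson) on chromosome 11 and 0.504 (0.391 to 0.638) on chromosome 7, but 0.119 (0.0651 to 0.200) on chromosome 14 and 0.126 (0.0628 to 0.225) on chromosome 18. As a share of the H3K36me3 regions of 20 to 75 kb they were 23.9% (19.1 to 29.3) on chromosome 7, 21.4% (16.9 to 26.4) on chromosome 11, 9.03% (5.03 to 14.7) on chromosome 14 and 7.64% (3.87 to 13.3) on chromosome 18. Chromosome 11 also had the most H3K4me3 regions per covered Mb, 5.58 against 3.37 over all, and its unamplified input was 1.31 times the autosomal mean. Chromosome 7 had 4.38 and 1.12 times. The part of input depth in these rates was not tested.

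Other H3K36me3 regions were usually near. The next one lay at a median of 20 kb (interquartile range 10 to 40 kb), and within 20 kb for 351 domains (55.6%, 51.7 to 59.5). For regions with 1 H3K4me3 region the share was 49.8% (47.5 to 52.1) and for those with none 62.8% (60.5 to 65.1).

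The sign of the H3K4me3 tags was not used by the selection beyond the shift. Over the 1431 H3K4me3 regions of the domains 49.9% (49.6 to 50.2) of tags were plus, and minus tags lay a median of 134 bp beyond plus tags, against 130 bp over all H3K4me3 regions. A two-sided exact binomial test against 50.0%, with Benjamini-Hochberg adjustment over all 7991 regions, called 0 regions of the domains and 0 in all (0% of those tested). At an unadjusted p under 0.05 there were 88 (6.15%) in the domains and 542 (6.78%) in all. The test compares tags within 1 library.

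At the borders of the selection, 70 domains measured 20 kb and 29 measured 75 kb, while 64 regions of 15 kb and 20 of 80 kb also had 2 or more H3K4me3 regions. Their median H3K36me3 ratios were 5.58 and 5.54 inside the limits and 5.20 and 4.83 outside. In 44 domains an H3K4me3 region between 4 and 5 kb away decided membership, and 49 regions missed it because that H3K4me3 region lay between 5 and 6 kb away. In 78 domains the second H3K4me3 region by tags had fewer than 25 tags, and in 15 the second by ratio stood under 5. With only overlapping H3K4me3 regions counted, 216 domains remained, so that most had an H3K4me3 region beside and not in the called H3K36me3.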

How the data were processed

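Each deposited list gives 1 placed tag per line, with chromosome, position and sign. The authors' lists hold positions and no counts or normalised values. The lists are named as unique hits, and the submitters' processing notes give the build as mm8. The aligner is not given in the sources used here. Repeats were collapsed, which removed 27.5% of the lines of the H3K4me3 input and 0% elsewhere. Tags were shifted by 75 bp by sign, and inputs were scaled by library totals (3.027 for H3K4me3 and 0.453 for H3K36me3). Ratios of domains omit the pseudocount of 1 used to call bins. Intervals are exact binomial (shares, tag ratios, medians), exact Poisson (rates) or Woolf's (inside over beside), and cover counting error only. H3K4me3 centres over 5 kb outside a domain (67) were counted at its end. Python 3.11.15, numpy 2.4.6, pandas 2.3.3 and scipy 1.17.1 were used, and the steps were tested on simulated data.

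The selection rule, the lists and the tests were chosen with earlier results of these data known. Domains were named by rule: the 6 with the most H3K4me3 regions, the 6 with the most H3K36me3 tags over input, the 4 with the widest H3K4me3 region, the 4 with the largest gap and the leading 2 of each arrangement, leaving out chromosome 18. Tags over input are in this naming the ChIP tags minus the scaled input tags. Chromosome X was not part of the selection. The notch, the arrangement, the number and the gaps were recomputed under 16 alternatives, and so, added after seeing the data, were the comparison with regions of 1 H3K4me3 region and the strand test.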

Additional observations from a re-analysis of the deposited data

Results flagged for a closer look

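Chromosome X lay outside the selection, and the same rule found 10 domains there, 0.0653 per covered Mb (0.0313 to 0.120), where the autosomes had 0.266. They made up 7.87% (3.84 to 14.0) of its 127 H3K36me3 regions of 20 to 75 kb. The result is listed because it comes from data no comparison used. Input depth on X was 0.398 (unamplified) and 0.513 (WGA) times the autosomal mean, and its part in the lower rate was not tested.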

How the results depend on the processing

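The number of domains was 631 and stayed within 1.5 times of that under 14 of 16 alternatives. It was 302 with at least 40 ChIP tags per bin and 216 with overlap only. The median gap of 21 kb ranged from 14 kb (overlap only) to 22 kb. The strand test called 0 regions under every alternative. As a share of H3K36me3 regions of 20 to 75 kb the domains were 16.4% with an H3K4me3 ratio of at least 2, 11.7% with at least 8, 20.2% with at least 10 tags, 7.48% with at least 40, 5.10% with overlap only, 20.4% within 10 kb, 8.94% with the other mark's input and 13.0% with background scaling. Interior H3K4me3 (60.5%) was found in 66.9% with at least 40 tags, 23.8% without bridging, 70.9% with 2 bins bridged, 94.4% with overlap only, 49.1% within 10 kb, 68.8% with the other input and 67.9% with background scaling. Both ends (45.6%) were occupied in 50.4% with an H3K36me3 ratio of at least 3, 35.4% with at least 40 tags, 66.2% without bridging, 37.1% with 2 bins bridged, 7.87% with overlap only, 50.4% within 10 kb, 32.4% with the other input and 36.5% with background scaling. Bridging and the distance act here through the definition of an end. The notch (0.145) stayed under 1 in all 16. It was 0.149 with a shift of 100 bp, 0.155 with shifted bins, 0.156 and 0.131 with H3K4me3 ratios of at least 2 and 8, 0.169 and 0.140 with H3K36me3 ratios of at least 1.5 and 3, 0.167 with at least 10 tags, 0.255 without bridging, 0.159 with 2 bins bridged, 0.166 with overlap only, 0.355 with the other input and 0.209 with background scaling. The domains' median H3K36me3 ratio relative to regions with 1 H3K4me3 region (1.08) was compared after seeing the data. It was 1.10 and 1.02 with H3K36me3 ratios of at least 1.5 and 3, 1.05 with at least 40 tags, 0.985 with overlap only, 1.10 within 10 kb, 1.12 with the other input and 1.22 with background scaling. The causes of the other shifts were not tested. No paired analysis was possible because each group has 1 library. The WGA input, at 1.03 tags per kb, limits every H3K4me3 ratio of a short region.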
